A study of Mus musculus with 117 samples.

Results

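The regions described here are the places where mouse embryonic stem (ES) cells, but not embryonic fibroblasts (MEF), carried a SUMO peak on H3K9me3 chromatin. The SUMO-1 and SUMO-2 peaks of ES cells were merged into 14515 regions, 13070 of these had no SUMO-1 or SUMO-2 peak of MEF, and 3001 of the 13070 overlapped an H3K9me3 peak of untreated ES cells by at least 1 bp. The regions were therefore chosen by their measured ES SUMO, MEF SUMO and untreated ES H3K9me3 peaks, and these lists are described without a test. The other 10069 ES-only SUMO regions lay off H3K9me3, and 1445 ES regions were shared with MEF. Positions are on mouse build mm9.

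SUMO is a small protein that is joined to lysines of other proteins by the E2 enzyme Ubc9. H3K9me3 is a mark of silent chromatin, and in ES cells it is laid down over many endogenous retroviruses by the methyltransferase SETDB1, which is brought there by the corepressor TRIM28 and KRAB zinc finger proteins. TRIM28 is itself modified by SUMO, and its SUMO groups are known to be bound by SETDB1.

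H3K9me3 was followed over these regions in 5 further peak lists, none of which entered the choice of regions. ES siUbc9 and ES siCtrl were ES cells of passage 15-20 given a small interfering RNA against Ubc9 or a control one. D4 shUbc9 and D4 shCtrl were MEF from E13.5 embryos, at passage 1, that expressed OKSM (Oct4, Klf4, Sox2 and Myc, which together reprogram fibroblasts) for 4 days with a hairpin RNA against Ubc9 or a control hairpin. The untreated MEF, also from E13.5 embryos, and the ES cells of the SUMO lists were wild type and had neither treatment. The labels do not say whether the ES cells of the 3 ES groups were of the same line. RNA was counted in 3 libraries each of ES siUbc9, ES siCtrl, D4 shUbc9 and D4 shCtrl, with 17.4 to 56.6 M gene counts per library. Nothing in the labels ties the replicates to separate cultures or animals, and p-values then measure the spread between these libraries, which may be technical.

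Each peak list was made by the authors from both replicates together, so a share of regions has no replicate error and no test between conditions was possible. The intervals given with shares are exact 95% binomial (Clopper-Pearson) intervals that cover the counting of regions alone, and neighbouring regions are not independent. The lists also differ in reach. H3K9me3 peaks covered 21.1 Mb in ES siUbc9 and 31.0 Mb in ES siCtrl, 7.39 Mb in D4 shUbc9 and 6.03 Mb in D4 shCtrl, 6.86 Mb in MEF and 9.35 Mb in untreated ES cells. The sequencing depth behind the lists is unknown from the files, and the main shares are therefore set beside the same share over all peaks of the mark. The lists also end at different values of the authors' peak score. The lowest score was 138 in ES siUbc9 and 92 in ES siCtrl, and 225 in D4 shUbc9 and 193 in D4 shCtrl. The part of these floors in missing or shorter peaks was not tested.

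The 3001 regions were wider and ranked higher than other ES-only SUMO regions, which is a description, since SUMO and ES H3K9me3 peaks chose them. Their median width was 860 bp, against 582 bp for ES-only SUMO regions off H3K9me3. Both SUMO-1 and SUMO-2 peaks were present at 2442 of them (81.4%), SUMO-1 alone at 308 and SUMO-2 alone at 251. Off H3K9me3 the share with both was 61.7%. The median SUMO-2 score stood at percentile 68.3 of its list for the regions on H3K9me3 and at percentile 42.6 for those off it. H3K9me3 covered a median of 92.2% of a region, and at least 50% of it at 2645 regions.

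Few regions lay at the edge of the overlap rule. The smallest overlap was 2 bp, at chr11:88778843-88779431, and 25 regions overlapped by under 50 bp. On the outside, 32 ES-only SUMO regions ended within 50 bp of an H3K9me3 peak, the nearest of them at chr12:85336130-85336625, 1 bp away, and 548 within 1 kb. Just within the rule, the region at chr16:10123813-10124365 (3 bp of overlap) had ES siUbc9, ES siCtrl and D4 shUbc9 peaks, and just outside it the region at chr1:59406245-59406857 (2 bp away) had ES siUbc9 and ES siCtrl peaks.

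In ES cells depleted of Ubc9, fewer of the regions carried an H3K9me3 peak than in the siRNA control. A peak was present at 831 regions in ES siUbc9 (27.7%, interval 26.1 to 29.3%) and at 1577 in ES siCtrl (52.5%, interval 50.7 to 54.3%). Over all 8508 H3K9me3 peaks of untreated ES cells the shares were 33.5% in ES siUbc9 and 50.7% in ES siCtrl. The share of the regions was thus near that of all such peaks in ES siCtrl, and below it in ES siUbc9. Among the 5143 H3K9me3 peaks that lay under no SUMO region of ES cells, 36.7% had a peak in ES siUbc9 and 49.2% in ES siCtrl.

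**Figure D1:**
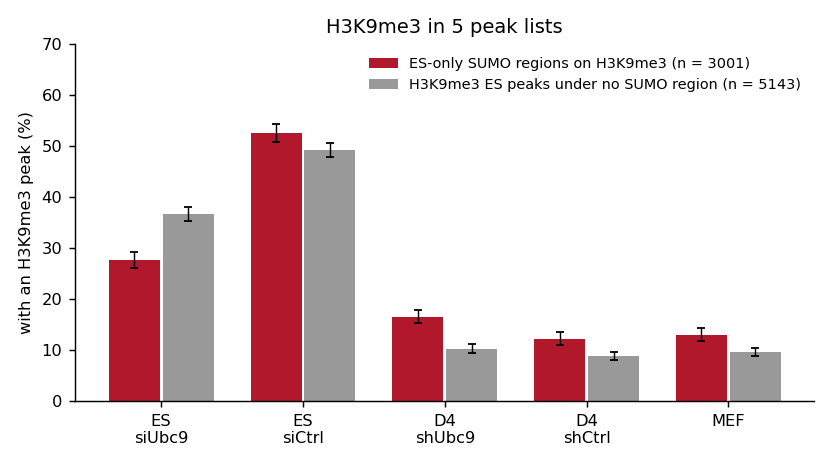
Share of regions with an H3K9me3 peak (y axis, %) in 5 peak lists (x axis), for the 3001 ES-only SUMO regions on H3K9me3 (red) and for 5143 H3K9me3 peaks of ES cells under no SUMO region (grey). Error bars are exact 95% binomial intervals; the red bars stand at 27.7% in ES siUbc9 and 52.5% in ES siCtrl, the grey ones at 36.7% in ES siUbc9 and 49.2% in ES siCtrl.

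Taken region by region, 789 of the 1577 regions marked in ES siCtrl had no peak in ES siUbc9 (50.03%, interval 47.5 to 52.5%), and 788 had one. Only 43 regions were marked in ES siUbc9 without ES siCtrl, and 1381 in neither. Over all 21492 ES siCtrl peaks, 44.1% had no ES siUbc9 peak, and over the H3K9me3 peaks of untreated ES cells that ES siCtrl shared it was 37.1%. In the other direction 13.7% of all ES siUbc9 peaks lacked an ES siCtrl peak. Counted by H3K9me3 peak instead of by region, 2178 of the 3046 untreated ES peaks under these regions had no ES siUbc9 peak (71.5%). Of the 1608 of them that ES siCtrl shared, 48.5% (interval 46.0 to 51.0%) had none, against 29.2% (interval 27.4 to 31.0%) of 2528 such peaks under no SUMO region.

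Other SUMO regions had shares at least as large. ES-only SUMO regions off that list had an ES siCtrl peak at 1704 of 10069 places, and 56.3% of the 1704 had no ES siUbc9 peak. Regions shared with MEF had one at 292 of 1445 places, and 59.6% of the 292 had none. The share of the 1577 ES siCtrl-marked regions, 50.03%, was thus below that of both other SUMO classes. Counted per untreated ES H3K9me3 peak, the share was 48.5% under the regions, above the 29.2% under no SUMO region. The SUMO classes were not matched for the width or score of their ES siCtrl peaks.

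Wide and high-scoring ES siCtrl peaks seldom lacked an ES siUbc9 peak, so ES siCtrl peaks were also compared within quartiles of their width. This is a different set from the untreated ES peaks compared above. Every ES siCtrl peak under a region or under no SUMO region was taken, whether or not it overlapped an untreated ES peak. Among the narrowest peaks (151 to 614 bp), 84.4% of those under the regions and 71.4% of those under no SUMO region had no ES siUbc9 peak. Among the widest (1813 to 11256 bp) the shares were 16.9% under the regions and 4.48% under no SUMO region. The peaks under the regions had the larger share in all 4 width quartiles and in all 4 quartiles of the authors' score. Crossing width and score, the share was larger in each of the 14 cells that held at least 20 peaks of both kinds, by 6.69 to 26.1 percentage points, and 2 cells held too few.

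**Figure D2:**
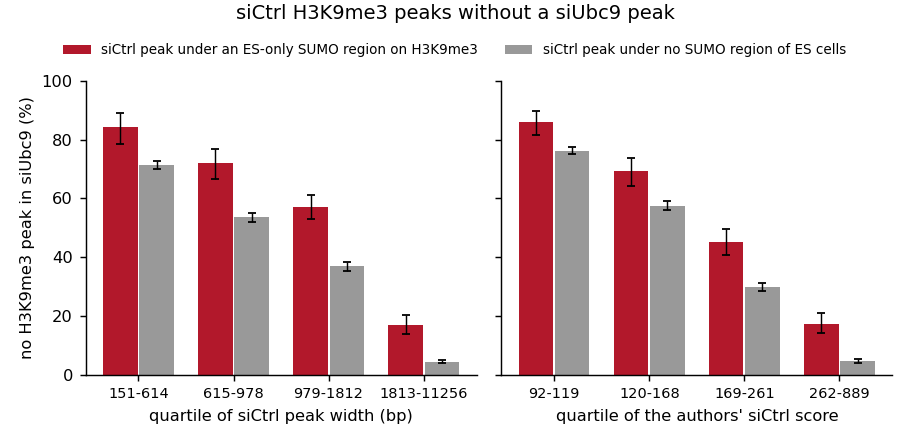
Share of ES siCtrl H3K9me3 peaks with no ES siUbc9 peak (y axis, %) by quartile of the peak's width in bp (left) and of the authors' score (right), for peaks under ES-only SUMO regions on H3K9me3 (red) and under no SUMO region of ES cells (grey), with exact 95% binomial intervals. Red stands above grey in all 8 pairs, and both fall with width and score, to 16.9% (red) and 4.48% (grey) in the widest quartile.

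Where H3K9me3 was present in both conditions it was shorter after depletion. At the 788 regions marked in both, the median length covered within 5 kb of the region was 2053.5 bp in ES siUbc9 and 3470.5 bp in ES siCtrl, and 746 of the 788 (94.7%) were covered over a shorter length in ES siUbc9. Of 1790 H3K9me3 peaks under no SUMO region and marked in both, 94.9% were, so this share was not larger at the regions. Summed over the regions with 5 kb added on either side, ES siUbc9 peaks covered 68.003% of the length of the ES siCtrl peaks. In the same windows at the 1790 peaks under no SUMO region it was 79.3%. Without the added 5 kb it was 76.3% over the regions and 77.7% over the 1790 peaks. Over the 828 untreated ES peaks that lay under the regions and were marked in both it was 72.0%. Within the regions themselves the medians were 649 bp in ES siUbc9 and 784 bp in ES siCtrl.

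Most regions that lacked an ES siUbc9 peak had none close by either. Of the 789, 109 (13.8%) had an ES siUbc9 peak within 1 kb, 212 (26.9%) within 5 kb and 484 (61.3%) within 50 kb, and the median distance to the nearest was 29.7 kb. Among the 1424 regions without an ES siCtrl peak, 7.02% had one within 1 kb. Coverage fell away on either side of the regions in every list. At the centre, 22.3% of the regions lay under an ES siUbc9 peak and 48.9% under an ES siCtrl peak, and at 5 kb downstream on the chromosome the shares were 3.07% in ES siUbc9 and 6.20% in ES siCtrl.

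**Figure D3:**
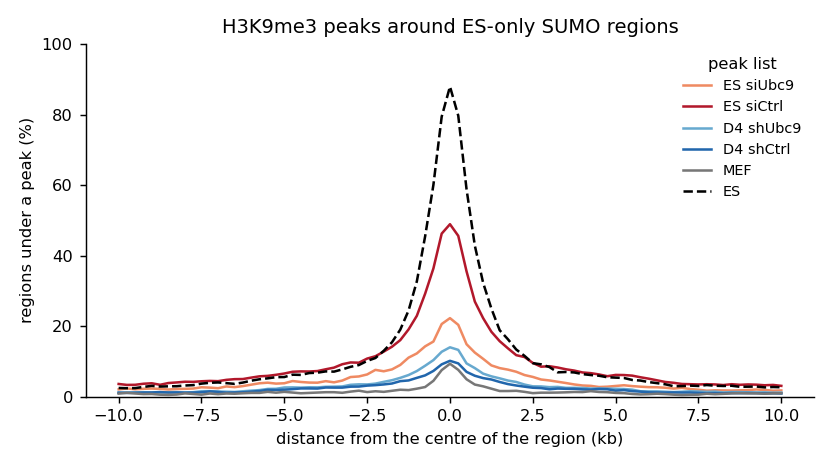
Share of the 3001 regions under an H3K9me3 peak (y axis, %) at each distance from the region's centre (x axis, kb), 1 line per peak list; the dashed line is the untreated ES list that helped choose the regions. At the centre the lines stand at 22.3% for ES siUbc9, 48.9% for ES siCtrl, 14.03% for D4 shUbc9, 10.2% for D4 shCtrl and 9.36% for MEF.

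The share without an ES siUbc9 peak was larger at regions with stronger SUMO-2 peaks, which is a description and carries no test. The intervals of the lowest and highest quartile did not overlap, but they cover the counting of regions alone. Neighbouring regions are not independent, and SUMO-2 peaks also helped choose the regions. From the lowest to the highest quartile of the SUMO-2 score, the share of ES siCtrl-marked regions with none was 45.3%, 46.9%, 53.0% and 56.9%. The share marked in ES siCtrl itself ran from 50.1% in the lowest quartile to 55.5% in the highest. By the untreated H3K9me3 score the order was opposite, with 56.4% in the lowest quartile and 41.7% in the highest. Regions with both SUMO proteins stood at 51.5% of 1309, those with SUMO-1 alone at 44.1% of 143 and those with SUMO-2 alone at 41.6% of 125, with intervals that overlap.

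After 4 days of OKSM the difference had the other sign, with more of the regions marked under Ubc9 depletion. An H3K9me3 peak was present at 498 regions in D4 shUbc9 (16.6%, interval 15.3 to 17.97%) and at 369 in D4 shCtrl (12.3%, interval 11.1 to 13.52%). The shares over all untreated ES H3K9me3 peaks were 14.4% in D4 shUbc9 and 12.0% in D4 shCtrl. Both D4 lists shared 291 regions, while 207 were in D4 shUbc9 alone and 78 in D4 shCtrl alone. Thus 21.1% of the 369 lacked a D4 shUbc9 peak. It was 23.1% of the 1017 untreated ES H3K9me3 peaks with a D4 shCtrl peak, and 34.1% of all D4 shCtrl peaks. In the other direction 207 of the 498 lacked a D4 shCtrl peak. So did 446 of the 1228 untreated ES H3K9me3 peaks with a D4 shUbc9 peak, and 45.4% of all D4 shUbc9 peaks. Of the 207 regions marked in D4 shUbc9 but not D4 shCtrl, 140 (67.6%) were also marked in ES siCtrl, against 52.5% of all 3001 regions. The same share over all untreated ES H3K9me3 peaks was not counted. Of the 291 regions in both D4 lists, ES siCtrl also marked 72 with ES siUbc9 and without MEF, and 48 with MEF and without ES siUbc9. It marked 39 with neither of these and 38 with both. A high share in ES siCtrl was thus not particular to the regions in D4 shUbc9 alone. With every list held to its 4468 highest-scoring peaks, the shares were 5.20% in ES siUbc9 and 13.7% in ES siCtrl, 14.4% in D4 shUbc9 and 12.3% in D4 shCtrl. The order within each pair thus held. ES siUbc9 then stood below both D4 lists, and ES siCtrl stood below D4 shUbc9 but still above D4 shCtrl.

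In untreated MEF, where none of these regions had a SUMO peak, 391 regions (13.0%, interval 11.8 to 14.3%) were on H3K9me3, and over all untreated ES H3K9me3 peaks it was 13.2%. The interval of D4 shCtrl overlaps that of MEF. The places were only in part the same, since 169 of the 369 regions marked in D4 shCtrl (45.8%) were among the 391 of MEF (43.2% of these).

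Across the 5 lists, 1896 regions (63.2%) were marked at least in 1 list, 38 in all 5 and 1105 (36.8%) in none, although every region lay on H3K9me3 in untreated ES cells. The most frequent combinations were ES siCtrl alone with 580 regions, and ES siUbc9 with ES siCtrl and neither MEF nor D4 with 540. MEF alone followed with 90. In none of MEF and the D4 lists were 2259 regions (75.3%) marked. The combinations were not counted over all untreated ES H3K9me3 peaks, so none can be called particular to the regions. List by list, the shares of all such peaks were near those of the regions in ES siCtrl (50.7%), MEF (13.2%) and D4 shCtrl (12.0%). The ES outcome was set beside the mark in fibroblasts. Without an ES siUbc9 peak were 45.7% (interval 41.1 to 50.4%) of the 457 ES siCtrl-marked regions that were also marked in MEF or D4, and 51.8% (interval 48.8 to 54.7%) of the 1120 that were not.

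**Figure D4:**
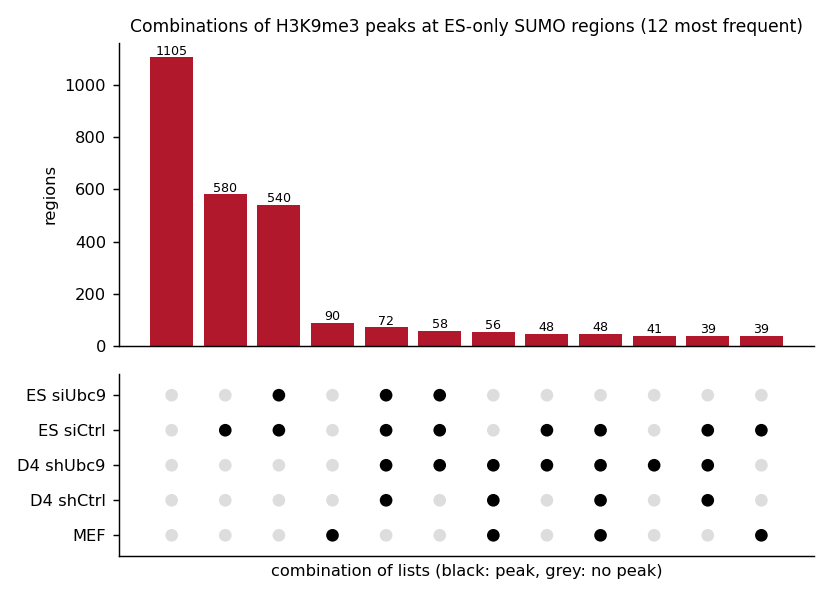
Number of ES-only SUMO regions on H3K9me3 (y axis) with each of the 12 most frequent combinations of H3K9me3 peaks in the 5 lists; black points below a bar mark the lists with a peak. No peak in any list (1105 regions), ES siCtrl alone (580) and both ES siRNA lists alone (540) come before all combinations that hold MEF or D4.

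Single regions show what stands behind these counts. The strongest SUMO-2 peak among regions marked in ES siCtrl but not ES siUbc9, which was the highest of its list, lay at chr14:68738847-68740227. It was under an untreated ES H3K9me3 peak of 3114 bp, an ES siCtrl peak of 1626 bp and a D4 shCtrl peak of 2713 bp, with none in D4 shUbc9 or MEF. Also in this class, chr16:13778157-13779800 and chr3:58367423-58368228, had ES siCtrl peaks of 1050 bp and 675 bp and none in MEF or D4, and the region on chromosome 16 also carried H3K27ac and H3K4me3 in ES cells. The region chr2:115545183-115548212 had an ES siCtrl peak of 2381 bp and a D4 shUbc9 peak of 1128 bp. The last, chr4:145704798-145706505, had no ES siUbc9 peak but was marked in ES siCtrl (815 bp), D4 shUbc9 (935 bp), D4 shCtrl (940 bp) and MEF (786 bp), so it went unmarked under Ubc9 depletion in ES cells alone among these lists.

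Regions marked in ES siUbc9, ES siCtrl and nowhere else had shorter peaks after depletion in each of the 5 with the strongest SUMO-2 peaks. At chr4:33386704-33389080 the ES siUbc9 peak had 543 bp and the ES siCtrl peak 2321 bp, and at chr3:32703295-32704412 they had 749 bp in ES siUbc9 and 2517 bp in ES siCtrl. At chr9:75537585-75538319 they had 669 bp in ES siUbc9 and 1324 bp in ES siCtrl, and at chr7:114480224-114481554 1427 bp in ES siUbc9 and 2147 bp in ES siCtrl. The smallest difference was at chr1:128876781-128877677, with 1170 bp in ES siUbc9 and 1194 bp in ES siCtrl.

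Of the 38 regions marked in all 5 lists, the 5 with the strongest SUMO-2 peaks also had the shorter peak in ES siUbc9. At chr6:143163017-143164054 the peaks had 1161 bp in ES siUbc9 and 2072 bp in ES siCtrl, 3709 bp in D4 shUbc9 and 3671 bp in D4 shCtrl, and 1046 bp in MEF. At chr9:59220415-59221360 they had 629 bp in ES siUbc9 and 2526 bp in ES siCtrl, 2558 bp in D4 shUbc9 and 2561 bp in D4 shCtrl. The regions chr9:38222614-38223206, chr8:88210205-88212255 and chr9:122768581-122770417 had ES siUbc9 peaks of 482, 1533 and 1246 bp and ES siCtrl peaks of 591, 2153 and 1361 bp.

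The highest untreated ES H3K9me3 scores among the regions were on the Y chromosome (chrY:2881516-2882253 and chrY:2848266-2850171), the X chromosome (chrX:166421734-166423301) and chromosome 4 (chr4:146790184-146791863 and chr4:146791960-146796403). The region on X had no ES siUbc9 or ES siCtrl peak, but one in both D4 lists, 949 bp in D4 shUbc9 and 973 bp in D4 shCtrl. All 5 had a peak in both D4 lists, unlike most of the regions. The chromosome 4 pair lies in one of the densest runs.

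Many of the regions had a close neighbour, although their median gap was wide. With neighbours at most 100 kb apart joined, 1533 regions (51.1%) fell into 558 runs of 2 or more, and 11.6% of neighbouring regions lay within 5 kb of each other, against 5.25% for ES-only SUMO regions off H3K9me3. The median gap was 297 kb between the regions and 131 kb between those off H3K9me3, which are more numerous. The longest run had 21 regions at chr6:37593550-37887008, of which 3 were marked in ES siUbc9, 8 in ES siCtrl, 5 in D4 shUbc9, 5 in D4 shCtrl and 2 in MEF. The run of 18 at chr4:146642965-146933854 stood out at D4, with 6 in ES siUbc9, 10 in ES siCtrl, 14 in D4 shUbc9, 13 in D4 shCtrl and 10 in MEF. The run of 13 at chr10:82838151-82946673 was marked at most of its regions in both ES lists, with 10 in ES siUbc9, 12 in ES siCtrl, 7 in D4 shUbc9, 3 in D4 shCtrl and 1 in MEF. Genes and repeat elements at these positions were not analysed here.

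Few of the regions carried active or Polycomb marks in untreated ES cells, apart from H3K27ac, a mark of active promoters and enhancers. H3K27ac peaks lay on 492 regions (16.4%), against 13.8% of all ES-only SUMO regions, which include them. It was 11.0% of all untreated ES H3K9me3 peaks and 7.04% of those under no SUMO region. H3K4me3, the promoter mark, lay on 74 (2.47%, against 9.63% of all ES-only SUMO regions), H3K4me1 on 115 (3.83%, against 4.84%) and H3K27me3, the Polycomb mark, on 27 (0.900%, against 1.02%). Over all untreated ES H3K9me3 peaks the shares were 1.61% for H3K4me3, 2.30% for H3K4me1 and 1.52% for H3K27me3. The 492 regions with H3K27ac had an H3K9me3 peak at 13.4% in ES siUbc9 and 30.9% in ES siCtrl, against 30.5% in ES siUbc9 and 56.8% in ES siCtrl for the 2509 regions without H3K27ac. Of those marked in ES siCtrl, 61.8% of 152 (interval 53.6 to 69.6%) of the regions with H3K27ac had no ES siUbc9 peak, and 48.8% of 1425 (interval 46.1 to 51.4%) of those without it.

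Peaks of the reprogramming factors lay on few of the regions at D4. The D4 shUbc9 lists were the longer, with 43.8 Mb in D4 shUbc9 and 32.4 Mb in D4 shCtrl for Sox2, 34.0 Mb in D4 shUbc9 and 22.8 Mb in D4 shCtrl for Oct4, and 52.1 Mb in D4 shUbc9 and 47.0 Mb in D4 shCtrl for Klf4. The part of this length in the counts at the regions was not tested. Sox2 peaks lay on 99 regions (3.30%) in D4 shUbc9 and 39 (1.30%) in D4 shCtrl, Oct4 peaks on 96 (3.20%) in D4 shUbc9 and 43 (1.43%) in D4 shCtrl, and Klf4 peaks on 113 (3.77%) in D4 shUbc9 and 62 (2.07%) in D4 shCtrl. Over all ES-only SUMO regions the D4 shUbc9 and D4 shCtrl shares were 4.84% and 3.08% for Sox2, 4.03% and 2.49% for Oct4, and 5.11% and 3.77% for Klf4. For each factor and hairpin, the regions on H3K9me3 thus had a smaller share than all ES-only SUMO regions, which include them. Over all untreated ES H3K9me3 peaks, the D4 shUbc9 and D4 shCtrl shares were 2.06% and 1.03% for Sox2. They were 1.89% and 1.09% for Oct4, and 2.42% and 1.47% for Klf4. Against these peaks the regions had the larger share each time, so the direction depends on the comparison. The share in D4 shUbc9 was the larger for each factor in every class given.

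RNA of retroelements, which are well known sites of H3K9me3 in ES cells, was higher after Ubc9 depletion in ES cells. Of 771 repeat families 60 passed the test (7.78%), 57 higher (7.39%) and 3 lower (0.389%). Of 16 families whose name begins with IAP, intracisternal A particles, 13 rose and none fell, with a median log2 fold change of 1.32 against -0.07 over all families. IAPEz-int, the internal part of an IAP, had 4455, 4516 and 4848 CPM (read counts scaled by library size, with TMM factors) in ES siUbc9 and 454, 533 and 512 CPM in ES siCtrl (9.22-fold higher, log2 fold change 3.20, SE 0.14, edgeR adjusted p = 2.40e-12). The libraries of the pair did not overlap. In bulk RNA, fewer cells of a type and less RNA per cell cannot be told apart. IAPEy-int rose 6.03-fold and MMERVK10C-int, of another retrovirus family silenced by TRIM28, 5.05-fold.

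All 4 ETn or MMETn families rose (ETnERV-int 2.85-fold, MMETn-int 2.21-fold), as did 20 of 102 RLTR families (RLTR44-int 3.33-fold, RLTR1B 2.49-fold), 3 of 6 L1Md families (L1Md_F 1.69-fold, L1Md_T 1.53-fold) and 2 of 7 MERVL or MT2 families (MERVL-int 3.38-fold, MT2_Mm 2.17-fold). None of these groups had a family that fell, by the adjusted test or at an unadjusted p under 0.05. The 3 that fell, named after their values were seen, were LTR9, MER92A and MER83A-int. With library sizes alone in place of TMM, 51 families passed, 48 higher and 3 lower. The rises of RLTR10B2, RLTR31_Mur, RLTR45-int, RLTR6-int, RLTR9E and IAPEY2_LTR then no longer passed. These rises, and those of RLTR44A and RLTR13D6, were also lost when single libraries were left out. Whether the copies that were transcribed lie in the regions cannot be told from counts per family, and the treatment of reads with several positions is not stated in the sources used here.

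At D4 the same groups had no family that passed edgeR's test. At an unadjusted p under 0.05, 31 RLTR, 3 L1Md, 2 IAP and 1 MERVL or MT2 families were lower in D4 shUbc9, and 1 ETn or MMETn family was higher. DESeq2 called 6 families of all kinds at D4. Of 769 families 3 passed (0.390%), 2 higher (0.260%) and 1 lower (0.130%), outside these groups: MamRep564 and MER34B-int were higher and MLT1H-int lower, named after their values were seen. Without D4 shUbc9 replicate 2 the count was 394, of which 390 were lower in D4 shUbc9, so the D4 count rests on single libraries. IAPEz-int had 379, 460 and 385 CPM in D4 shUbc9 and 397, 352 and 492 CPM in D4 shCtrl, which overlap. The median log2 fold change over all families was -0.30 at D4, and -0.27 over the IAP families.

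**Figure D5:**
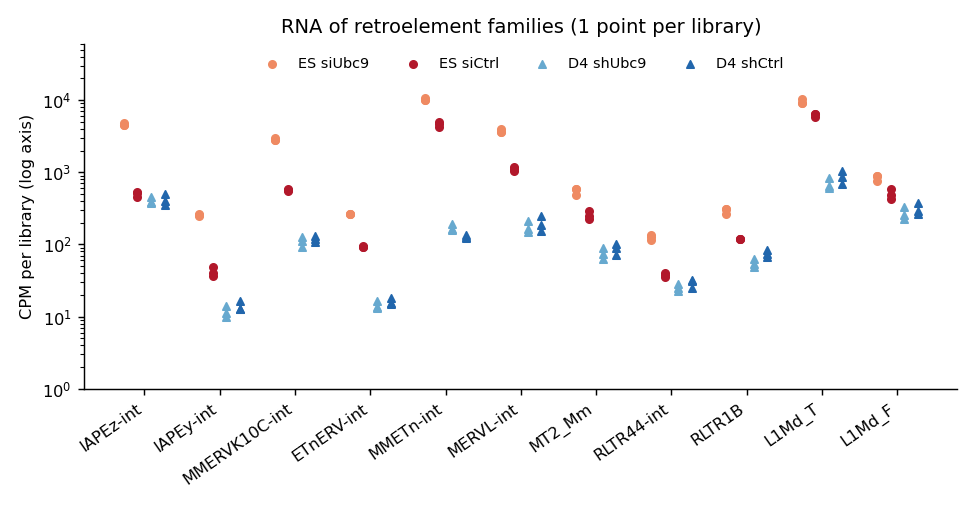
RNA of 11 retroelement families in CPM (y axis, log scale), 1 point per library and 3 libraries per group: ES siUbc9 and ES siCtrl (circles), D4 shUbc9 and D4 shCtrl (triangles). The ES siUbc9 libraries stand above all ES siCtrl libraries for every family shown, for IAPEz-int at 4455 to 4848 CPM against 454 to 533 CPM.

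Genes of the SUMO pathway and of H3K9 methylation moved in both directions within a broad response. In ES cells 39.1% of 17859 genes passed, 21.3% higher and 17.8% lower in ES siUbc9. Of 8 H3K9 methyltransferases and cofactors 2 rose and 2 fell. Atf7ip, a partner of SETDB1, had 333, 343 and 348 CPM in ES siUbc9 and 130, 176 and 151 CPM in ES siCtrl (2.24-fold higher, edgeR adjusted p = 1.98e-05). Suv39h1 rose 1.13-fold, a call that was lost under 4 alternatives, while Ehmt2 and Ehmt1, which add lower methylation states to H3K9, fell 1.35-fold and 1.29-fold. Setdb1 (250 ± 6.77 CPM in ES siUbc9, 231 ± 4.86 CPM in ES siCtrl, SD, n = 3 each, edgeR adjusted p = 0.0872) and Trim28 (1564 ± 144 CPM in ES siUbc9, 1741 ± 39.8 CPM in ES siCtrl, edgeR adjusted p = 0.164) did not pass.

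Among 15 readers and corepressors 3 fell and none rose, with Pphln1, a subunit of the HUSH complex, 1.47-fold lower and Chaf1b, of the chromatin assembly factor CAF-1, 1.15-fold lower. Of 16 genes of SUMO conjugation and deconjugation 2 rose and 5 fell. Senp6 and Senp7, proteases that trim SUMO chains, rose 1.65-fold and 1.56-fold, and the protease gene Senp3 fell 1.65-fold. Of 7 KRAB zinc finger genes 1 rose and 3 fell, and of 6 H3K9 demethylases 2 fell (Kdm4a and Kdm4c, each lost without single libraries). Zfp57, which protects imprints, fell 1.56-fold, Zfp459 fell 1.37-fold and Zfp809, which silences retroviruses, rose 1.22-fold. The list medians lay between -0.10 and 0.00 on the log2 scale, against 0.01 over all genes.

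Markers of the cell types moved as well. Of 8 ES cell markers 5 were lower in ES siUbc9, Nanog 1.95-fold, and their summed level was 2319 to 2400 CPM in ES siUbc9 and 2952 to 2998 CPM in ES siCtrl. Fibroblast markers summed to 34.8 to 51.9 CPM in ES siUbc9 and 37.1 to 51.5 CPM in ES siCtrl. Immune cell markers summed to 35.5 to 37.9 CPM in ES siUbc9 and 48.4 to 52.0 CPM in ES siCtrl, with Itgam 1.82-fold higher and Cd68 1.65-fold lower. Endothelial and endoderm markers summed to 40.6 to 47.8 CPM in ES siUbc9 and 33.2 to 34.7 CPM in ES siCtrl, where of 5 tested Tek was 1.54-fold higher and 2 were lower. The part of these lists in the H3K9me3 and repeat results was not tested.

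At D4, 53.2% of 17001 genes passed, 27.2% higher and 26.1% lower in D4 shUbc9. Of 6 tested KRAB zinc finger genes 5 rose and none fell, with Zfp459 at 7.41, 7.39 and 8.74 CPM in D4 shUbc9 and 3.20, 4.28 and 4.06 CPM in D4 shCtrl (2.004-fold higher, edgeR adjusted p = 0.000243). Zfp809 rose 1.46-fold and Zfp57 1.45-fold. Of 8 methyltransferases and cofactors 3 rose and 1 fell, Suv39h2 by most (1.33-fold higher). Of 15 readers and corepressors 3 rose, among them Morc3 (1.22-fold) and Fam208a, a HUSH subunit (1.21-fold), and 4 fell, among them Daxx (1.33-fold) and Dnmt1 (1.26-fold). Of 6 demethylases 4 fell, Kdm4b 1.25-fold and Kdm4c 1.18-fold, and of 16 SUMO genes 5 rose, Sumo3 1.502-fold, and 3 fell, Pias3 1.46-fold. With library sizes alone in place of TMM, the falls of Kdm4a, Kdm4c, Kdm3b, Ehmt2, Morc2a and Chaf1a no longer passed.

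Fibroblast markers summed to 12305 to 13430 CPM in D4 shUbc9 and 18168 to 24586 CPM in D4 shCtrl, with 6 of 8 lower. ES cell markers summed to 49.6 to 63.8 CPM in D4 shUbc9 and 29.1 to 38.7 CPM in D4 shCtrl, most of it Pou5f1 (Oct4). Whether its counts include reads of the OKSM cassette was not tested. All 5 immune cell markers rose, with sums of 60.4 to 64.6 CPM in D4 shUbc9 and 35.2 to 38.9 CPM in D4 shCtrl. Fibroblast markers far outweighed the other lists in all 6 D4 libraries. The part of these shifts in the D4 peak lists was not tested.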

How the data were processed

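Each of 32 peak lists was made by the authors from both ChIP replicates on mm9, with a score per peak in the deposited files that was used as a rank within its list. Per the submitters' processing notes, Bowtie, bedtools 2.19.1 and MACS2 were used, with Bowtie2 also named for the siRNA H3K9me3 lists. No source used here states the threshold for peaks. Chromatin was fixed with formaldehyde and precipitated with antibodies to H3K9me3, SUMO-1 or SUMO-2, per the labels. The authors deposited counts per gene (26301) and per repeat family (799), made with STAR 2.5.0a and featureCounts and followed by DESeq2, per the submitters' processing notes. The RNA kit was stranded, per the labels, but no source used here states the strand setting of the counting, so genes with an antisense partner are uncertain.

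Peaks were merged and overlapped by at least 1 bp in Python 3.11.15 with pandas 2.3.3. Counts were tested per pair of groups with edgeR 4.0.16 in R 4.3.3 (TMM, filterByExpr with a minimum count of 10, quasi-likelihood test, Benjamini-Hochberg adjustment over all genes or all families, adjusted p under 0.05), with repeat families scaled by the gene library sizes. Values in CPM use these scaled sizes, and DESeq2 1.42.0 was an alternative. On simulated data with 200 genes changed by a log2 size of 1 the test recovered 88.5% in the ES design and 87.5% in the D4 design. False calls made up 2.21% of the calls in the ES design and 5.91% in the D4 design. Gene names came from the deposited IDs through a names table, which matched 24191 of 26301, and 79 of 80 list members were in the count table.

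The regions and gene lists were chosen with earlier results of these data known. Regions were named by the highest SUMO-2 or H3K9me3 score in each class, genes and repeat families as up to 2 rises and 2 falls with the smallest p per list. Setdb1, Trim28, the single marker genes and the calls lost under another setting were named after their values were seen. The RNA level of the depleted gene is not reported here.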

Additional observations from a re-analysis of the deposited data

Results flagged for a closer look

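The change in the share of the regions with an H3K9me3 peak had opposite signs in the 2 settings: -24.9 percentage points for ES siUbc9 minus ES siCtrl and 4.30 percentage points for D4 shUbc9 minus D4 shCtrl. Over all untreated ES H3K9me3 peaks the signs were the same, with 33.5% in ES siUbc9 and 50.7% in ES siCtrl, and 14.4% in D4 shUbc9 and 12.0% in D4 shCtrl. The length covered by the lists moved likewise, with 21.1 Mb in ES siUbc9 and 31.0 Mb in ES siCtrl, and 7.39 Mb in D4 shUbc9 and 6.03 Mb in D4 shCtrl, and its part in the shares was not tested. With 1 pooled list per condition this difference was not tested.

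Among genes of the SUMO and H3K9 lists, 3 passed in both settings with opposite signs. They were picked for that pattern, so the size of the difference between the responses is a description and carries no test. The log2 response in ES cells minus that at D4 was -1.08 for Senp3 (SE 0.07), -1.25 for Zfp57 (SE 0.07) and -1.52 for Zfp459 (SE 0.15). In each, all 3 ES siUbc9 libraries lay below all ES siCtrl libraries and all 3 D4 shUbc9 libraries above all D4 shCtrl libraries. In an edgeR interaction over all genes, 8154 of 19343 (42.2%) differed in response between ES cells and D4.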

How the results depend on the processing

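Peak results kept the order of both pairs under every setting run. Values follow in the order ES siUbc9, ES siCtrl, D4 shUbc9, D4 shCtrl, MEF, the share of ES siCtrl-marked regions with no ES siUbc9 peak, and the share of untreated ES peaks under a region with no ES siUbc9 peak. With peaks covering at least 50% of a region they were 22.0, 48.2, 13.8, 10.03, 8.30, 56.4 and 81.2%. With the upper part of each followed list by score (its median or higher) they were 13.3, 33.1, 10.4, 7.20, 8.73, 64.4 and 85.8%. With the same upper part of the untreated ES H3K9me3 list, which left 1857 regions, they were 32.0, 57.8, 19.0, 14.5, 14.5, 47.3 and 67.05%. With lists held to 4468 peaks they were 5.20, 13.7, 14.4, 12.3, 7.398, 71.7 and 94.7%. Chosen after seeing the data were 3 more settings. Peaks within 1 kb gave 32.4, 55.9, 19.5, 15.1, 16.7, 44.4 and 66.97%. Holding the ES siRNA lists to 18745 peaks moved ES siCtrl to 48.4% and the share with no ES siUbc9 peak to 46.9%. Regions with no other ES histone mark had 30.7% in ES siUbc9, 57.6% in ES siCtrl, 18.03% in D4 shUbc9 and 13.55% in D4 shCtrl, with 67.8% of ES peaks lacking ES siUbc9. The cause of these shifts was not tested beyond the smaller lists or region sets.

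Replicate numbers did not pair the RNA libraries, with correlations of 0.20, 0.16 and 0.04 in ES cells and -0.00, -0.37 and -0.22 at D4. With the replicate block, 8003 genes and 204 repeat families (122 higher, 82 lower) passed in ES cells, against 7497 genes and 0 families at D4. DESeq2 called 6 D4 families, 3 higher and 3 lower. Leaving out each library in turn gave 5176 to 7582 genes and 43 to 89 families in ES cells, and 7281 to 8937 genes and 0 to 394 families at D4. The D4 family count was 0 without D4 shUbc9 replicate 1 or D4 shCtrl replicate 1, 394 without D4 shUbc9 replicate 2 and 5 without D4 shCtrl replicate 2; the cause was not tested.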

Other observations

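The X chromosome held few of the regions. On X, 18 of 194 ES-only SUMO regions lay on H3K9me3 (9.28%, exact 95% interval 5.59 to 14.3%), while the autosomes ranged from 17.7% to 28.3%. On Y it was 5 of 15 (33.3%, interval 11.8 to 61.6%). The untreated ES list had 78 H3K9me3 peaks on X (0.917% of the list) and the ES siCtrl list 1242 (5.78%). All 5 regions of X marked in ES siCtrl had no ES siUbc9 peak. The labels do not say whether these lists came from the same ES line.

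The 27 regions with an H3K27me3 peak in untreated ES cells differed from the rest in fibroblasts, where 20 (74.1%, exact 95% interval 53.7 to 88.9%) were on H3K9me3 in MEF, 11 in D4 shUbc9 and 13 in D4 shCtrl. In ES cells 5 were marked in ES siUbc9 and 8 in ES siCtrl. They were picked out after their values were seen, and no test was made.

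Among the autosomes the share of ES siCtrl-marked regions with no ES siUbc9 peak ranged from 40.5% on chromosome 1 to 61.7% on chromosome 7.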
